A study of Homo sapiens with 9 samples.

Results

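Of 8 genes of cytosolic folate metabolism and folate transport, SHMT1 alone passed the test for a change after 24 h of formate in LN229 glioblastoma cells, and none of the 7 that could be tested passed it after 8 h. With the replicate number as a block in the model, TYMS, SLC19A1 and FPGS passed as well at 24 h, all lower. The block raised the share that passed among all tested genes too, from 4.25% to 24.1% (11.6% lower). The genes are the cytosolic enzymes MTHFD1, SHMT1, ALDH1L1 and TYMS, the folate transporters SLC19A1 and SLC46A1, and FPGS and GGH, which set how much folate a cell retains. They were chosen by name, from their known roles but with earlier results of these data known. All 8 were found among the 23727 genes of the count table. LN229, as the growth protocol names the cells, is an established human glioblastoma line; the source label spells it LN299. Its medium, the same in all groups, held 17 mM of glucose, 2 mM of glutamine and bovine serum at 10%, and sodium formate was added to 500 µM for 8 or 24 h before the RNA was taken. The 0 h group was untreated, and each of the 3 groups held 3 libraries made with a stranded mRNA kit. No group was kept for 8 or 24 h without formate, so the addition of formate and the time in culture cannot be told apart. The labels do not say whether the replicates came from separate cultures, so p-values measure the spread between these libraries, which may be technical.

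Folates are carriers of single carbon units. In the cytosol, the trifunctional enzyme MTHFD1 attaches formate to tetrahydrofolate and interconverts the products, which feed purine and thymidylate synthesis and the methylation of homocysteine. SHMT1 moves the carbon between serine, glycine and folate, ALDH1L1 oxidises formyl-tetrahydrofolate to carbon dioxide, and TYMS spends methylene-tetrahydrofolate to make dTMP. SLC19A1, the reduced folate carrier, brings folates in at neutral pH and SLC46A1 does so by proton coupling. FPGS adds the glutamate tail that keeps folates inside the cell, and GGH removes it. In many cultured cells most formate is made in mitochondria, from serine, by SHMT2, MTHFD2 and MTHFD1L.

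Libraries held 22222298 to 25848242 counts, and 20719 to 21354 genes were detected in each. Of 12 glial and glioblastoma markers, 11 were in the table and 8 had a mean of at least 5 CPM (counts relative to library size), with VIM at 4330, NES at 952 and EGFR at 93.1 CPM. GFAP, a defining astrocyte marker, was at 0.249 CPM. Of 16 markers of other cell types reported here, 13 were in the table and 11 of these were under 1 CPM, among them the leukocyte marker PTPRC at 0.0727 and the epithelial marker EPCAM at 0.0191 CPM. The exceptions were KRT18 (123 CPM) and SNAP25 (15.5 CPM). The summed level of the other-cell list was 134.7 to 193.9 CPM at 0 h, 141.3 to 149.0 at 8 h and 117.3 to 129.6 at 24 h, while that of the glial list was 6331 to 8680, 6464 to 7386 and 5500 to 6300 CPM. The part of these levels in the results below was not tested.

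The promoters of SHMT1 and FPGS are printed as examples of genes whose 24 h libraries all lay above (SHMT1) or all below (FPGS) those of 0 h. SLC46A1 also lay above in all libraries and is not printed. TYMS is shown as the member tied to DNA synthesis, and MTHFD1 as the member whose mean moved least. Each stretch is the 150 bases before a RefSeq start on GRCh38.p14, on the gene's own strand, and capitals mark matches to the letters searched. SHMT1 lies at chr17:18363551-18363700 (minus strand), FPGS, at the most upstream of 3 listed starts, at chr9:127802708-127802857 (plus), TYMS at chr18:657503-657652 (plus) and MTHFD1 at chr14:64388203-64388352 (plus).
SHMT1: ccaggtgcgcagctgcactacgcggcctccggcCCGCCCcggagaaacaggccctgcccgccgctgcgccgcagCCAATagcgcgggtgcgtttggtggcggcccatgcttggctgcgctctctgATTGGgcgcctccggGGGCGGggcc
FPGS: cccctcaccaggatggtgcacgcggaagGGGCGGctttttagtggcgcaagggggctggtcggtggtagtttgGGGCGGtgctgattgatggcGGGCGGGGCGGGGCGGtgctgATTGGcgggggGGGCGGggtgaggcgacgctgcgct
TYMS: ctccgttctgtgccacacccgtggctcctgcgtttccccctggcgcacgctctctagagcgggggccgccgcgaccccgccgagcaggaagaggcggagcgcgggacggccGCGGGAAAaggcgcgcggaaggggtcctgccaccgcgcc
MTHFD1: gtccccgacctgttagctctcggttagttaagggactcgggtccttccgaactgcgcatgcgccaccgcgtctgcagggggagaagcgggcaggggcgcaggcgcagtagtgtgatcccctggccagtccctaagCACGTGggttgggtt
The search used both strands, with overlapping matches counted, and covered 300 bases, from 250 before to 50 after each start. The SHMT1 window held the CCAAT box (CCAAT) 2 times and the GC box (GGGCGG) 2 times. The FPGS window held 2 CCAAT boxes and 9 GC boxes, of which 1 and 6 lie in the printed stretch. The SLC46A1 window held 0 CCAAT boxes and 1 GC box. The TYMS window held a single match to the E2F letters (TTTCCCGC, TTTCGCGC, TTTGCCGC or TTTGGCGC), and the MTHFD1 window 1 E-box (CACGTG) besides 2 CCAAT boxes outside the printed stretch. A window of SLC19A1 and a window of ALDH1L1, genes with several listed starts, also held an E2F match. The E-box also occurred in a window of SLC19A1 and at another FPGS start. Among 35116 promoters of that length, 34.6% held the CCAAT box, 45.0% the GC box, 3.31% the E2F letters and 7.26% the E-box. A match is a run of letters, not a measured binding site.

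The transcripts spanned a wide range of levels. Per kilobase of exon, which allows genes to be compared, TYMS was highest at a mean of 151 CPM per kb over the 9 libraries (range 108 to 214). GGH followed at 42.2 (36.6 to 45.4), MTHFD1 at 20.9 (18.5 to 23.4), SHMT1 at 9.05 (6.71 to 11.6), FPGS at 8.51 (6.41 to 12.7), SLC19A1 at 4.45 (2.91 to 7.39) and SLC46A1 at 0.746 CPM per kb (0.597 to 0.98). The ranges of SHMT1 and FPGS overlapped, as did those of FPGS and SLC19A1, and no other neighbours in this order did. Of the 15273 genes tested, those with an exon length in the annotation were ranked in the same way, and TYMS stood at percentile 98.8 and SLC46A1 at percentile 19.6. ALDH1L1 was nearly silent: untreated replicates 1 and 2 held 1 count each and the other 7 libraries 0. In those 7 the limit that a count of 0 allows (3 counts) is 0.124 to 0.136 CPM. ALDH1L1 was not tested.

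**Figure D1:**
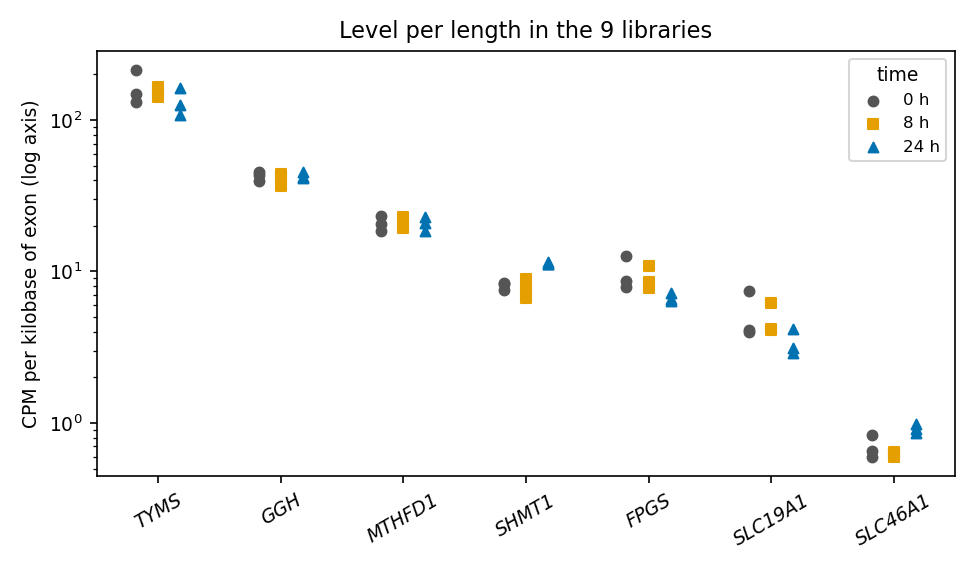
Level of the 7 tested genes, in CPM per kilobase of exon on a log axis, with each library as a point and the 3 times side by side. The genes fall from TYMS at a mean of 151 to SLC46A1 at 0.746 CPM per kb, and the points of SHMT1 and FPGS share a range.

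SHMT1 (ENSG00000176974, chr17:18327860-18363563, minus strand, GENCODE 29 on GRCh38, as below) alone passed at 24 h against 0 h with all 9 libraries, unblocked. SLC46A1 also lay higher in every 24 h library but did not pass against 0 h in that fit. The level of SHMT1 was 59.8, 61.5 and 55.2 CPM in untreated replicates 1, 2 and 3, 48.9, 64.8 and 55.4 CPM at 8 h, and 81.8, 81.6 and 84.2 CPM at 24 h. All 3 libraries of 24 h lay above every library of 0 h and of 8 h, and these earlier groups overlapped. The mean went from 58.8 ± 3.23 CPM (SD, n = 3) at 0 h to 82.5 ± 1.42 at 24 h, or 1.40-fold. On the log2 scale the fitted change was 0.49 (SE 0.11, 95% interval 0.25 to 0.72, adjusted p = 0.0345, quasi-likelihood test of edgeR, Benjamini-Hochberg adjusted). Against 8 h the change was 0.55 (SE 0.11, interval 0.31 to 0.79, edgeR adjusted p = 0.0248), a call lost in 4 of the 9 fits without a library. SHMT1 was thus 1 of 7 tested members called at 24 h against 0 h, where 4.25% of all tested genes were called, 2.47% higher and 1.77% lower. It was also 1 of 7 at 24 h against 8 h (4.56% of all tested genes, 2.84% higher and 1.72% lower) and 1 of 7 in the test for any difference among the 3 groups (3.64%, adjusted p for SHMT1 = 0.0309, edgeR). The call against 0 h did not depend on the tool, being made by DESeq2 and limma-voom too, but it was lost with the 8 h libraries out of the fit (log2 fold change 0.49, edgeR adjusted p = 0.0506). It was also lost in 5 of the 9 fits that left out a library: untreated replicate 2 (adjusted p = 0.0518), untreated replicate 3 (0.0688), 8 h replicate 3 (0.0589), 24 h replicate 2 (0.136) or 24 h replicate 3 (0.158, edgeR), with changes of 0.44 to 0.52.

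MTHFD1 (ENSG00000100714, chr14:64388031-64463457, plus), the enzyme that takes up formate, did not pass in any comparison. Its level was 220, 193 and 173 CPM at 0 h, 216, 193 and 181 CPM at 8 h, and 215, 196 and 174 CPM at 24 h. The groups lay on top of each other, with replicate 1 highest and replicate 3 lowest in each. The log2 fold change of 24 h against 0 h had a 95% interval of -0.27 to 0.26, and of -0.16 to 0.16 with the replicate number as a block in the model, so larger changes lay outside these intervals.

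TYMS (ENSG00000176890, chr18:657604-673578, plus) was 528, 368 and 326 CPM at 0 h, 408, 380 and 353 CPM at 8 h, and 405, 312 and 266 CPM at 24 h. Within each number the 24 h library was the lower, by log2 differences of -0.38, -0.24 and -0.29, but replicate 1 of 24 h lay above replicates 2 and 3 of 0 h, so the groups overlapped. The fitted change was -0.31 (SE 0.19, interval -0.73 to 0.10, edgeR adjusted p = 0.306). Leaving out a library moved it to -0.10 (without untreated replicate 1), -0.19 (without 24 h replicate 3) or -0.50 (without 24 h replicate 1). With the replicate number as a block it was -0.31 (interval -0.53 to -0.09) and passed, at an edgeR adjusted p of 0.0462. This blocked call was kept in 2 of 9 fits without a library, those without untreated replicate 3 or 8 h replicate 1. On the opposite strand, ENOSF1 shares 39.1% of the TYMS exon bases, and reads of the pair may be mixed if the counting ignored strand; ENOSF1 had 15.6 to 24.8 CPM over all libraries.

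**Figure D2:**
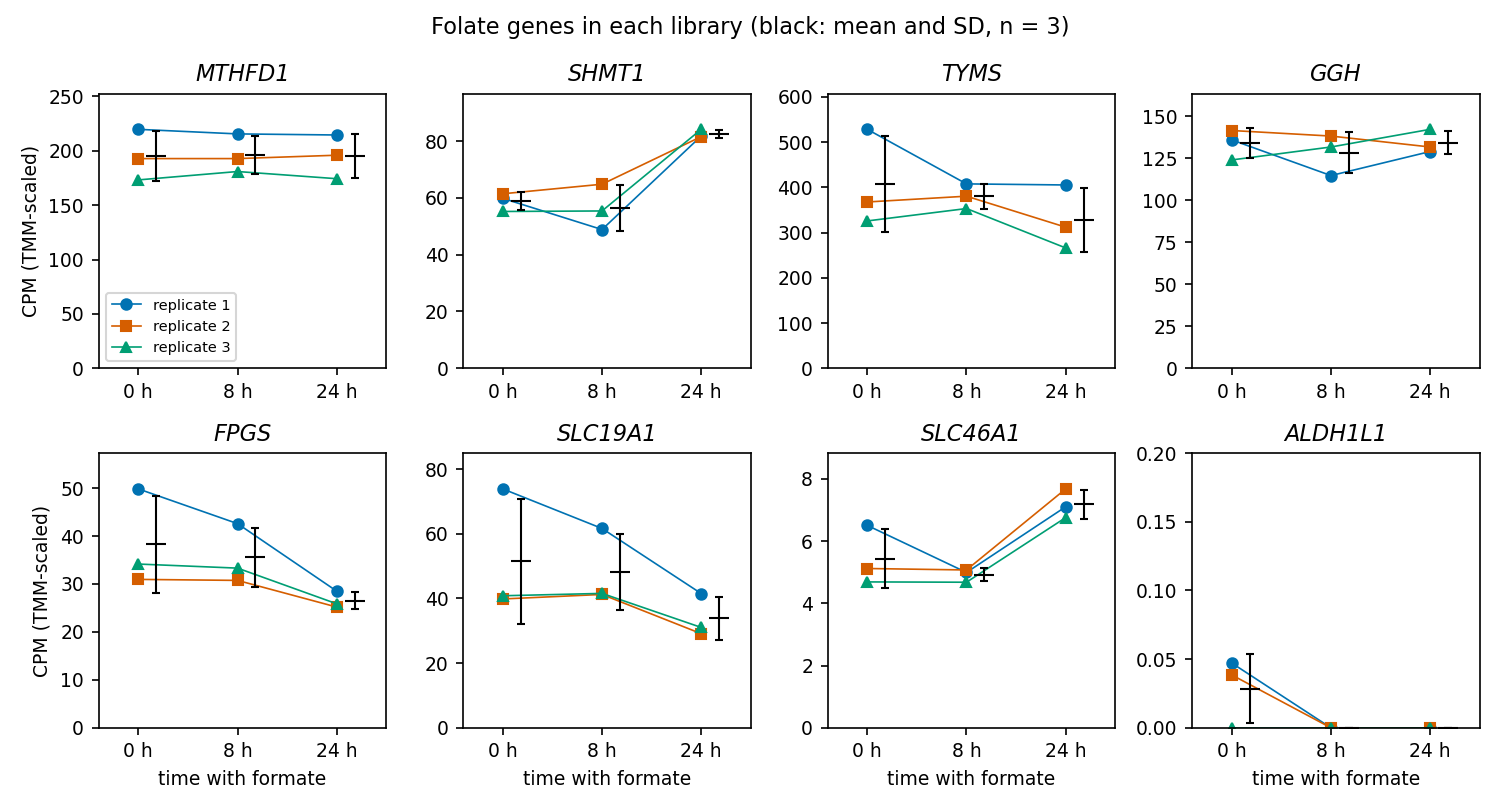
Level of each of the 8 genes in CPM (linear axes from 0, evenly spaced times), with a symbol and line for each replicate number and the mean and SD (n = 3) in black. SHMT1 and SLC46A1 lie higher in every 24 h library than in any 0 h library and FPGS lower, while MTHFD1 keeps 3 nearly level lines.

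At 24 h against 0 h the fitted changes of the transporters had opposite signs, and neither passed without the block. SLC19A1 (ENSG00000173638, chr21:45493572-45544411, minus) was 73.9, 39.9 and 40.8 CPM at 0 h, 61.7, 41.3 and 41.6 CPM at 8 h, and 41.5, 29.1 and 31.1 CPM at 24 h. Replicate 1 was far above the others at 0 h and 8 h, and its 24 h value still exceeded the lower untreated ones, so the groups overlapped. Same-numbered libraries differed by -0.83, -0.45 and -0.40 (log2, 24 h minus 0 h). The fitted change was -0.60 (SE 0.25, interval -1.14 to -0.06, edgeR adjusted p = 0.155), and it was -0.27 without untreated replicate 1. With the block it was -0.56 (interval -0.78 to -0.35, edgeR adjusted p = 0.00232). COL18A1 on the opposite strand shares 14.01% of the SLC19A1 exon bases, and its own level was 165 CPM at 0 h and 206 CPM at 24 h.

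SLC46A1 (ENSG00000076351, chr17:28394756-28407197, minus) was 6.51, 5.12 and 4.69 CPM at 0 h, 4.99, 5.07 and 4.68 CPM at 8 h, and 7.11, 7.68 and 6.76 CPM at 24 h. Every 24 h library lay above every earlier one, replicate 3 of 24 h only narrowly above untreated replicate 1. The change against 0 h was 0.40 (SE 0.16, interval 0.06 to 0.75, edgeR adjusted p = 0.144), and 0.41 with the block (edgeR adjusted p = 0.0508). Against 8 h it was 0.55 (SE 0.16, interval 0.20 to 0.90, edgeR adjusted p = 0.0729), and with the block, an alternative, 0.55 (edgeR adjusted p = 0.0179). That comparison passed in DESeq2 (0.53, adjusted p = 0.0351), in edgeR with the 0 h libraries out of the fit (0.54, adjusted p = 0.0389) and in edgeR without untreated replicate 1 (0.53, adjusted p = 0.0241). SARM1 on the opposite strand shares 56.4% of the SLC46A1 exon bases and was at 12.8 to 17.2 CPM at 0 h and 16.4 to 18.95 CPM at 24 h, so the level of SLC46A1 is uncertain if strand was not used in counting.

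Of the enzymes of folate retention, FPGS (ENSG00000136877, chr9:127794597-127814327, plus) was 49.8, 31.0 and 34.2 CPM at 0 h, 42.6, 30.8 and 33.3 CPM at 8 h, and 28.5, 25.2 and 25.9 CPM at 24 h. All 24 h libraries were below all earlier ones, and the spread between libraries was smaller at 24 h (SD 1.75 CPM) than at 0 h (SD 10.1 CPM), where replicate 1 stood high. The change was -0.53 (SE 0.18, interval -0.92 to -0.14, edgeR adjusted p = 0.101), which did not pass, and -0.31 without untreated replicate 1. With the block it was -0.50 (interval -0.73 to -0.28, edgeR adjusted p = 0.00573), which passed. GGH, which acts in the opposite direction, was 136, 141 and 124 CPM at 0 h, 115, 138 and 132 CPM at 8 h, and 129, 132 and 142 CPM at 24 h. Its groups overlapped throughout, and its change at 24 h against 0 h had an interval of -0.22 to 0.23.

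Across the 7 tested members, the block raised the calls at 24 h against 0 h from 1 to 4: SHMT1 higher, and TYMS, SLC19A1 and FPGS lower. It raised them among all tested genes too, from 4.25% to 24.1% (12.6% higher, 11.6% lower). SHMT1, SLC19A1 and FPGS were called in all 9 blocked fits without a library. In 4 of 7 members (MTHFD1, TYMS, SLC19A1 and FPGS), replicate 1 was the highest library in all 3 groups. With replicate 1 left out of every group and no block, an alternative added after the data were seen, 4 members were called: SHMT1 and SLC46A1 higher, SLC19A1 and FPGS lower. That fit also called more of all genes, 2616 of 15470 tested. The libraries of 24 h and 0 h did not overlap for 3 of 7 members, SHMT1 and SLC46A1 (higher) and FPGS (lower), beside 30.3% of all tested genes (15.9% higher, 14.4% lower). The same 3 of 7 did not overlap between 24 h and 8 h (34.3%, with 18.2% higher and 16.2% lower).

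At 8 h against 0 h, 0 of 7 members were called by edgeR's quasi-likelihood test, 0 had an unadjusted p under 0.05 (0.517% of all tested genes did), and DESeq2 and limma-voom also called 0, where 0% of all tested genes were called. No member's libraries separated, against 3.31% of all tested genes (1.43% higher, 1.89% lower). The fitted changes ran from -0.14 for SLC46A1 (interval -0.50 to 0.21) to 0.01 for MTHFD1 (-0.26 to 0.27), and SLC19A1 had the widest interval (-0.63 to 0.44). The 8 h and 24 h comparisons share the untreated libraries.

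**Figure D3:**
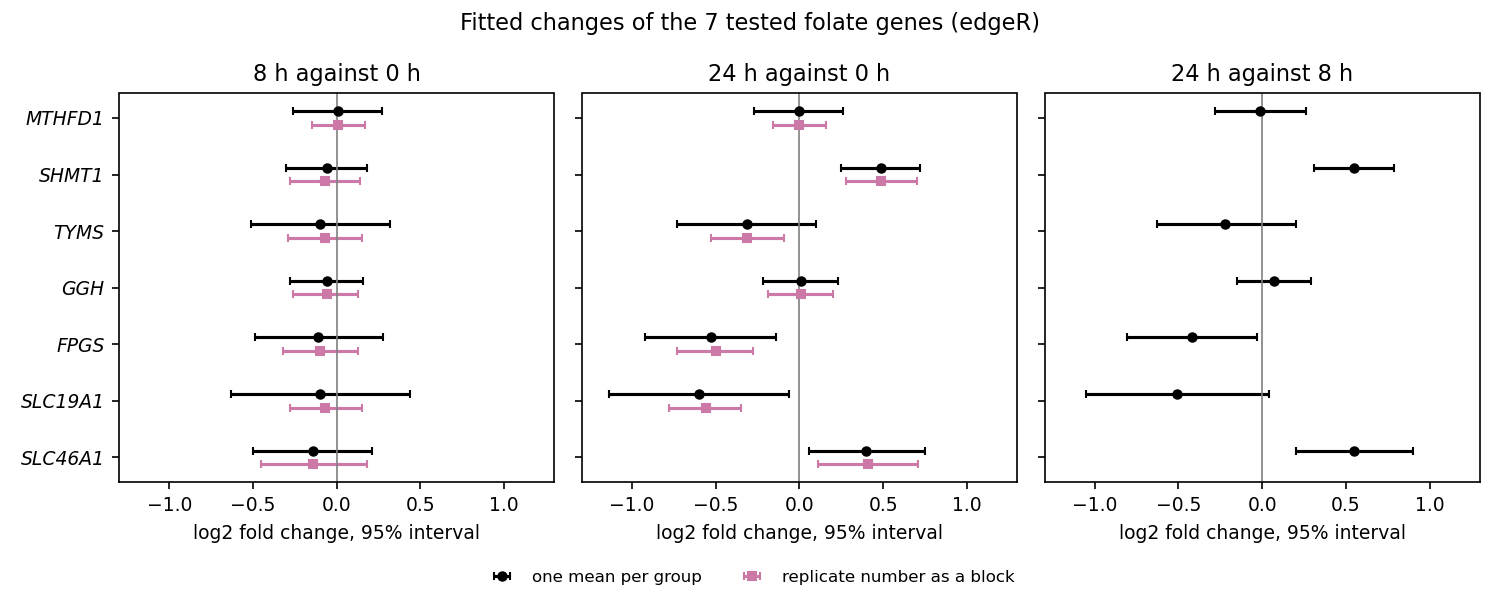
Fitted log2 fold changes of the 7 tested genes with 95% intervals in 3 comparisons, with 1 mean per group (black). Pink squares show the fit with the replicate number as a block, drawn only for the comparisons against 0 h. Every interval at 8 h includes 0, while at 24 h against 0 h SHMT1 lies at 0.49 and SLC19A1 at -0.60 with a much wider black than pink interval.

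Ratios per kilobase of exon, formed within each library, show the balance between partners as a description, without a test. SHMT1 to its mitochondrial counterpart SHMT2 was 0.0922 to 0.142 at 0 h, 0.0865 to 0.141 at 8 h and 0.167 to 0.216 at 24 h. SLC19A1 to SLC46A1 was 6.10 to 8.90, 6.37 to 9.68 and 2.97 to 4.58. In both, the 24 h libraries lay apart from all others. FPGS to GGH was 0.174 to 0.292 at 0 h, 0.177 to 0.296 at 8 h and 0.145 to 0.176 at 24 h, so the 24 h libraries overlapped those of 0 h and lay below those of 8 h, and MTHFD1 to MTHFD2 overlapped at all times, between 0.750 and 0.927.

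Likeness of pattern was measured as the root mean square difference of log2 CPM, each gene centred on its own mean, over the 9 libraries. Among members, SLC19A1 and FPGS were the closest pair (0.128), then SHMT1 and SLC46A1 (0.151), and SHMT1 and SLC19A1 were the farthest apart (0.613). Among 9600 genes with a mean of at least 5 CPM, FBXO7 (0.046), LMCD1 (0.055) and CNIH2 (0.056) were most like SHMT1. BYSL (0.033), MAZ (0.044) and NGEF (0.049) were most like FPGS, and RPUSD1 (0.047), SURF2 (0.059) and TIMM13 (0.063) most like SLC19A1. For TYMS these were CTNNAL1 and ATF4 (both 0.056) and CDCA5 (0.057).

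Of 12 other folate enzymes and carriers reported here, 8 were tested. Their median log2 fold change at 24 h against 0 h was 0.12, beside 0.01 over all tested genes. These 8 include SLC25A32 (0.34) and DHFR2 (0.2), which act in mitochondria, so the median is not one of cytosolic genes alone. None was called by edgeR (0 of 8, with 2 at an unadjusted p under 0.05, beside 26.4% of all tested genes), and DESeq2 and limma-voom called 0 as well. With the block 2 of 8 were called, beside 24.1% of all tested genes, both higher: MTRR (0.32, edgeR adjusted p = 0.0202) and MTR (0.30, 0.0384), reductase and methyltransferase of the homocysteine branch. MTHFS, which returns the stored formyl folate to use, was near 1 CPM or below with a change of -0.34 (edgeR adjusted p = 0.467).

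Of 12 mitochondrial folate enzymes, 10 were tested, with a median of 0.04. SARDH, sarcosine dehydrogenase, rose (log2 fold change 1.63, SE 0.40, edgeR adjusted p = 0.0442) and was the only one of 10 called by edgeR and by limma-voom. DESeq2 did not call SARDH (1.64, adjusted p = 0.0508), and called ALDH1L2 (0.63, adjusted p = 0.0159) higher and MTHFD1L (-0.66, adjusted p = 0.0328) lower. Among all 15273 tested genes DESeq2 called 1606, where edgeR called 649. With the block 3 of 10 were called by edgeR, beside 24.1% of all tested genes: SARDH and the formyl-folate dehydrogenase ALDH1L2 (0.65, edgeR adjusted p = 0.0116) higher, and MTHFD1L (-0.63, edgeR adjusted p = 0.000911), which releases formate in mitochondria, lower. SHMT2 had a change of -0.24 (edgeR adjusted p = 0.380) and MTHFD2 of -0.08 (0.769).

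At 24 h against 0 h, edgeR called 0 of 14 enzymes of dTMP and deoxynucleotide synthesis around TYMS, beside 4.25% of all tested genes. An unadjusted edgeR p under 0.05 was reached by 4 of 14, beside 26.4% of all tested genes. The median change was -0.09. DESeq2 called 2, DTYMK and SAMHD1, beside 1606 of all 15273 tested genes, and limma-voom called 0. With the block 4 of 14 were called, beside 24.1% of all tested genes. DTYMK, which phosphorylates dTMP, was lower (-0.65, edgeR adjusted p = 0.000968), as were NME1 (-0.51, 0.0136) and TK1, the thymidine salvage kinase (-0.30, 0.0364). SAMHD1, which degrades deoxynucleotides, was higher (0.38, edgeR adjusted p = 0.00665).

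TYMS is transcribed mainly around S phase in cycling cells, so the cycle lists are given beside it. Of 32 S phase genes, 4 rose at 24 h against 0 h (2.47% of all tested genes did), none fell, and the median change was 0.25. The 4 were CCNE2 (0.82, edgeR adjusted p = 0.0199), a cyclin of S phase entry, E2F2 (0.66, 0.0272), MCM6 of the replicative helicase (0.58, 0.0271) and DTL (0.41, 0.0376). DESeq2 called 8, all higher, beside 1606 of all 15273 tested genes in either direction. With the block the count was 15, all higher (12.6% of all tested genes), led among the added genes by POLA1 (0.45, edgeR adjusted p = 0.00579) and MCM4 (0.35, 0.0112). Of 35 G2 and M phase genes, 16 fell (1.77% of all tested genes did), none rose, and the median was -0.54. Among them were NEK2 (-0.68, edgeR adjusted p = 0.0167), the mitotic cyclin CCNB1 (-0.91, 0.0215), the kinase PLK1 (-0.83, 0.0267) and CDC20 (-0.90, 0.0267), which activates the anaphase-promoting complex. The others were AURKA, BIRC5, BUB1, CCNB2, CDC25C, CDCA3, CENPA, DLGAP5, HMMR, KIF20A, TPX2 and UBE2C. DESeq2 called 23, all lower, beside the same 1606 of all tested genes. With the block 27 fell (11.6% of all tested genes), KIF2C (-0.56, edgeR adjusted p = 0.00152) and NDC80 (-0.55, 0.00199) leading the added ones. The summed S phase level was 3179 to 3763 CPM at 0 h and 3636 to 4545 CPM at 24 h, and the summed G2 and M level 11200 to 12020 and 6522 to 9553 CPM. At 8 h, 0 genes of either list were called by edgeR, DESeq2 or limma-voom, and 0 had an unadjusted p under 0.05 in edgeR. At 24 h against 0 h the fitted changes of SHMT1 and SLC46A1 were positive, like the S phase median. Those of TYMS, SLC19A1 and FPGS were negative, like the G2 and M median, and those of MTHFD1 (0) and GGH (0.01) were near 0. The medians differ in sign, so a change in either direction shares the sign of 1 of them. In bulk RNA, fewer cells in a phase and less RNA per cell cannot be told apart, and the part of the cycle in the values of the folate genes was not tested.

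**Figure D4:**
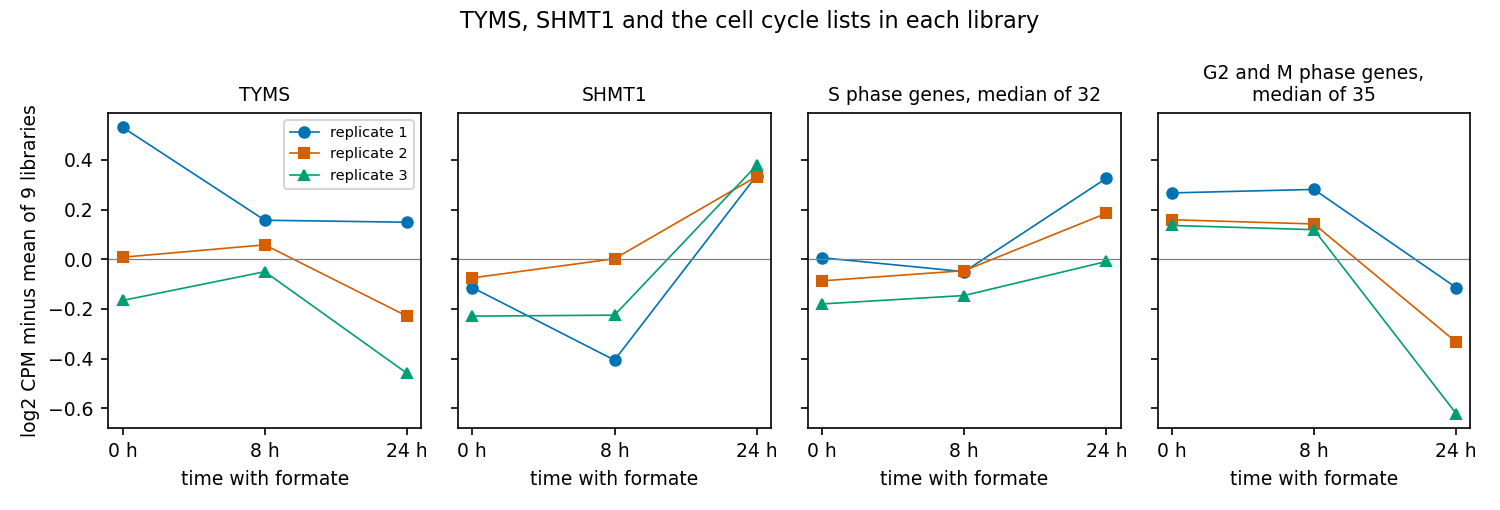
Log2 CPM minus the mean of the 9 libraries for TYMS, SHMT1 and the medians of the S phase and the G2 and M phase lists, by replicate number at 0, 8 and 24 h (evenly spaced). At 24 h the SHMT1 and S phase lines lie higher and the G2 and M lines lower than at 0 h in all 3 numbers, and TYMS is lower in each number than at 0 h.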

How the data were processed

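The authors deposited a table of raw counts per Ensembl gene. Per the submitters' processing notes, bcl2fastq 2.20.0.422, STAR 2.7.4a and GRCh38 were used; the counting program, annotation release and strand setting are not given in the sources used here. Every column was matched to its sample by time and replicate number. GENCODE 29 (GRCh38) gave exon lengths and overlaps and held 98.0% of the genes; promoter sequences came from RefSeq (GRCh38.p14).

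filterByExpr kept 15273 genes, and library sizes were scaled with TMM (factors 0.92 to 1.065). Counts of all 9 libraries entered a single fit, 1 mean per group (edgeR 4.0.16, R 4.3.3), with quasi-likelihood tests, two-sided, and Benjamini-Hochberg adjustment over all tested genes (threshold 0.05). Standard errors are the log2 fold change divided by the square root of F. CPM carry the TMM factors, and log2 CPM used a prior count of 2. The scripts were tested on simulated counts without a replicate effect and with larger changes than those fitted for the members. That test does not bear on the member calls. Alternatives were DESeq2 1.42.0, limma-voom (limma 3.58.1), other scalings, no filter, fits of 2 groups, a replicate block and fits without a library.

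The titles number the replicates. Deviations from the group means of same-numbered libraries correlated across genes at r = 0.367, 0.164 and 0.251 between 0 h and 24 h, at 0.476, 0.432 and 0.414 between 0 h and 8 h, and at 0.423, 0.0367 and 0.404 between 8 h and 24 h. The weakest of these was that of number 2 between 8 h and 24 h. The values do not settle whether the numbers pair the libraries, so the block served only as an alternative. It fits a shared term per number over all 9 libraries. Blocked results of 24 h against 0 h therefore also assume that the numbers pair 8 h with 24 h.

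Named were all 8 members; list genes called at 24 h against 0 h and, of those called only with the block, the 2 with the smallest p; MTHFS, SHMT2 and MTHFD2; and the 3 genes with a mean of at least 5 CPM most like each member called with or without the block. MTR, NME1, TK1, DHFR2, SLC25A32 and the opposite-strand genes were named after their values were seen. Some genes are not reported here and were left out of the list counts and sums. The members and lists were chosen with earlier results of these data known, so their counts are descriptions and not independent evidence.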

Additional observations from a re-analysis of the deposited data

Results flagged for a closer look

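The level of SHMT1 at 24 h of formate differed from that at 8 h, by the test of 24 h against 8 h itself. The difference was 0.55 on the log2 scale (edgeR's quasi-likelihood test, adjusted p = 0.0248), higher in 3 of 3 libraries of 24 h than in any of 8 h.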

How the results depend on the processing

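Of 546 values of single members under the alternatives, 477 kept their side of the threshold, 59 passed it newly and 10 no longer passed it. The sign differed from the reported value in 27, all of members not called in that comparison, such as SLC19A1 (0.25 in place of -0.10), TYMS (0.13) and FPGS (0.12) at 8 h without untreated replicate 1. With the replicate block, members called went from 1 to 4 at 24 h against 0 h, at 24 h against 8 h and for any difference. At 24 h against 0 h, calls in the other folate list and the mitochondrial folate list went from 0 and 1 to 2 and 3. Those in the nucleotide, S phase and G2 and M lists went from 0, 4 and 16 to 4, 15 and 27. The block changed no call at 8 h against 0 h. The blocked counts are alternatives in every comparison, because the correlations do not settle whether the numbers pair the libraries. With the 2 groups compared alone, 0 members were called at 24 h against 0 h and 3 at 24 h against 8 h, where DESeq2 called 2. Leaving out a library gave 0 to 1 members at 24 h against 0 h. At 24 h against 8 h it gave 0 to 3, and for any difference 0 to 2 (0 to 1276 of all genes). With the block these member counts were 3 to 4, 2 to 5 and 3 to 5. The same blocked fits called 2213 to 3816, 1179 to 5432 and 1431 to 4636 of all genes. Without replicate 1 in every group, chosen after seeing the data, 4 members were called at 24 h against 0 h. That fit called 2616 of 15470 tested genes. Among all genes, 649 were called at 24 h against 0 h, 3687 with the block, 1606 by DESeq2, 124 with 2 groups and 0 to 899 without a library, being 0 without 24 h replicate 2 or 3. At 24 h against 8 h these were 696, 3130, 1458, 1787 and 0 to 2545, and for any difference 556, 2986 and 1508 (DESeq2). The SHMT1 call at 24 h against 8 h was lost without 8 h replicate 1 (edgeR adjusted p = 0.131) or 3 (0.0823), or 24 h replicate 2 (0.115) or 3 (0.139). The order of levels was unchanged with the longest transcript as length. The cause of these changes was not tested. Depth limits ALDH1L1, whose level is under the 3-count limit.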
